A study of Mus musculus with 16 samples.

Results

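The genes of the cytosolic ribosome were followed in NIH3T3 cells, an established mouse fibroblast line, after treatment with azacytidine. Members were taken by gene symbol from the probe annotation. A probe belonged if its single symbol began with Rpl, Rplp or Rps and a digit, or was Rpsa, leaving out the Rps6k kinases and pseudogenes. The rule took 94 of 20355 probes, which stand for 62 genes, 38 named for the large and 24 for the small subunit. Enough arrays gave a value for 77 of these probes and 56 genes (34 large, 22 small), which are compared below. Rpl23, Rpl36al, Rpl39l, Rpl41, Rps12 and Rps27l did not reach that number of arrays. The symbols also brought in Rps19bp1, a nucleolar regulator that is no ribosomal protein, and the paralogs Rpl22l1 and Rpl7l1.

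On each of the 16 two-colour cDNA arrays, treated and untreated cells of one line were compared in the 2 dyes. Erbb2-transfected cells given 5 µM azacytidine were on 4 arrays and the same cells given 10 µM were on 8, both against untreated Erbb2-transfected cells. Untransfected NIH3T3 cells given 10 µM were on 4 arrays, against untreated NIH3T3 cells. All cells of the first 2 groups, controls included, therefore carried the transfected Erbb2, a receptor tyrosine kinase oncogene. The labels used here do not give the length of treatment, the promoter of the transgene, the number of clones or whether arrays came from separate cultures. P-values thus measure the spread between arrays, which may be technical.

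A ribosome is built from a small subunit, which reads the message, and a large subunit, which joins amino acids. Both hold ribosomal RNA and one copy of nearly every ribosomal protein, so cells make these proteins in matched amounts. Their messages begin with a run of pyrimidines, the 5′ terminal oligopyrimidine (5′ TOP) tract, and belong to the most abundant in growing fibroblasts. Azacytidine is an analogue of cytidine that enters RNA as well as DNA and, in DNA, blocks the enzymes that methylate cytosine.

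The promoters of 5 members are shown because the results turn on these genes. Rpl5, Rps4x, Rps27 and Rpsa were among the lowest values in both lines at 10 µM, and Rpl11 is the partner of Rpl5. Each stretch runs from 100 bases before to 30 bases after the RefSeq start of the gene in build GRCm38.p6, 5′ to 3′ on the gene's own strand. Capitals mark CCTTTC, letters of the kind found in 5′ TOP tracts, and CCGGAAG, the core bound by GABP and other ETS factors, each searched on both strands.
Rpl5, chr5:107900428-107900557, plus strand: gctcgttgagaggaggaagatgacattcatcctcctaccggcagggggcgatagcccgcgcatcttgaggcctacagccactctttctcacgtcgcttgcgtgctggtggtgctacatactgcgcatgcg
Rps4x, chrX:102189362-102189491, minus strand: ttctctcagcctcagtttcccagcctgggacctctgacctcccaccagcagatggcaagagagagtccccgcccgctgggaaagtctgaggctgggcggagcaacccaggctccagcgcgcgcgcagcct
Rps27, chr3:90213619-90213748, minus strand: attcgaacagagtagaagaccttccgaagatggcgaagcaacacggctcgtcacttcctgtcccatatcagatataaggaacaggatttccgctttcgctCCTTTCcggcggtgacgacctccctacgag
Rpsa, chr9:120127666-120127795, plus strand: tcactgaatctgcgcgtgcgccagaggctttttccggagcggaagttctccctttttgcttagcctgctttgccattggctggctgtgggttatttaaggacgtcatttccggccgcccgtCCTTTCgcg
Rpl11, chr4:136053364-136053493, minus strand: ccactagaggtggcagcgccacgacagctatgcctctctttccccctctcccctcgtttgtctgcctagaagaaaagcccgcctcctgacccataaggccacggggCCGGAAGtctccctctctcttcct

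In Rps27 the run CCTTTC opened at the first base of the annotated message, and in Rpsa at base 22. Promoters of 300 bases (250 before to 50 after the start) were at hand for 48 of the 56 measured genes, 56 promoters in all. They held a median of 22.5 CpG pairs, the sites of cytosine methylation, against 7 in all 32851 mouse promoters of the table. CCTTTC stood in 41.1% of them, against 23.8% of all promoters, and CCGGAAG in 37.5%, against 8.86%. TATAA, a core of the TATA box, stood in 26.8%, against 24.9% of all promoters. Within 30 bases either side of the start the shares were 14.3% against 4.99% for CCTTTC, 21.4% against 3.84% for CCGGAAG and 12.5% against 5.65% for TATAA. Matches of CCTTTC and CCGGAAG did not overlap in the stretches shown. These matches describe letters in a window and say nothing of what binds there. The sets were not matched for base composition, with a median of 59% G and C in member promoters against 52.7% in all.

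Whether a deposited ratio was Cy5 over Cy3 or treated over untreated is not stated, so the values are first given as deposited. With the treated RNA in Cy5, the ribosomal median was below 0 on every array. It was -0.34 and -0.39 in Erbb2 cells at 5 µM, between -0.42 and -0.25 on the 4 such arrays at 10 µM, and -0.69 and -0.70 in untransfected cells. With the treated RNA in Cy3 it was above 0 on every array. It was 0.27 and 0.22 at 5 µM, between 0.25 and 0.44 at 10 µM, and 0.66 and 0.59 in untransfected cells. The sign of the ribosomal median thus went with the dye of the treated RNA on all 16 arrays.

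**Figure D1:**
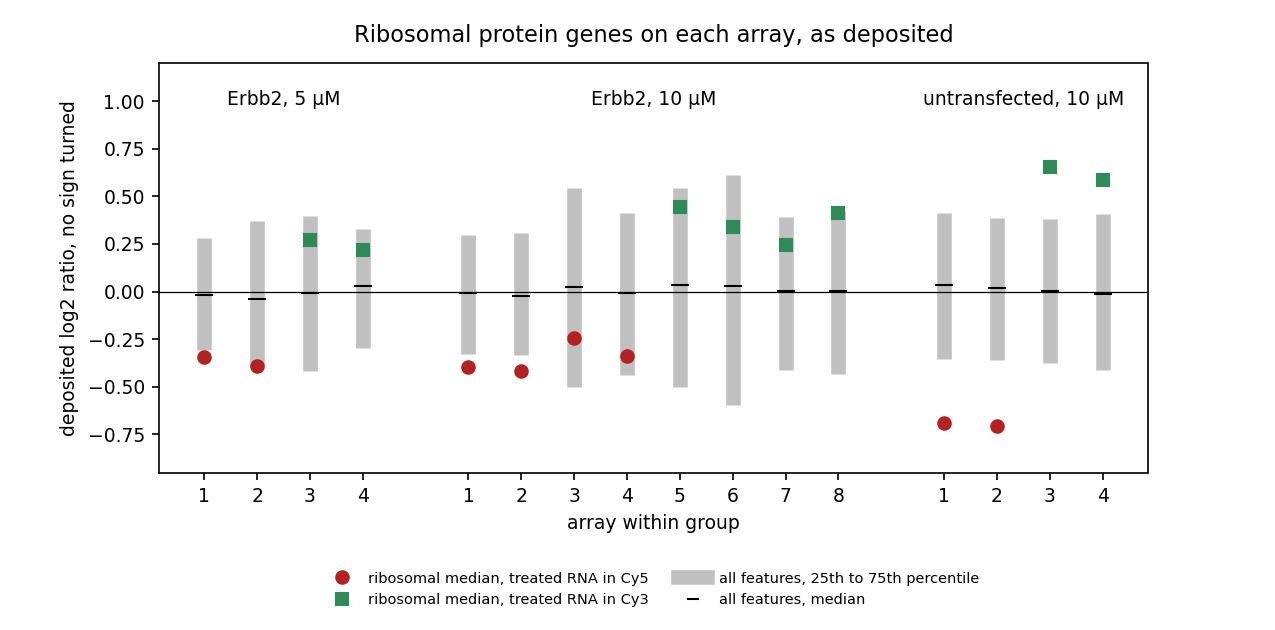
Median deposited log2 ratio of the measured ribosomal protein genes on each array (y axis) by array number within its group (x axis), before any sign was turned. Circles are arrays with the treated RNA in Cy5, squares those with it in Cy3, and grey bars the 25th to 75th percentile of all features on that array with their median as a dash. All circles lie below 0 and all squares above it, and the 4 arrays of untransfected cells lie outside the grey bars.

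Read as Cy5 over Cy3, this is a lower ratio of ribosomal messages in treated cells on every array. Read as treated over untreated, the 2 arrangements cancel. Of the 56 members, 41 at 5 µM, 42 at 10 µM and 49 for untransfected cells were below 0 on average in the Cy5 arrangement and above 0 in the Cy3 arrangement. These are 73.2%, 75% and 87.5% of them, against 27.2%, 24.8% and 27.1% of all features. The difference between arrangements divided by 2 had a median over members of -0.29, -0.33 and -0.60, and their mean had -0.06, 0.01 and -0.04. The first quantity is the response under the dye reading and the second under the other.

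Across member genes, pairs of arrays with the same arrangement had a mean Spearman's rho of 0.35, 0.41 and 0.54 in the 3 groups, and pairs with exchanged dyes had -0.19, -0.26 and -0.54. Over all features the values were 0.14, 0.07 and 0.21 for the same arrangement and -0.02, -0.01 and -0.16 for exchanged dyes. Genes on one array are not independent replicates, so no p is given. The labels name 1 dye for both channels on the untransfected arrays, whose arrangement was therefore read from channel 1 and may be wrong. From here on every value is a log2 ratio read as treated over untreated after turning those arrays on which Cy3 marked the treated RNA. This direction is likely, not certain. With no array turned 0 members passed in any group, against 0, 2 and 4 of all features.

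At 10 µM azacytidine, the ribosomal protein genes that passed the test were all lower, in both lines. In Erbb2 cells at 10 µM 18 of 56 passed the test as lower and 0 as higher, against 0.862% of all features lower and 0.403% higher. In untransfected cells 22 of 56 passed as lower and 0 as higher, against 2.13% and 0.596%. At 5 µM 0 passed either way, against 0.0322% of all features lower and 0.177% higher. The test was a limma fit over all 16 arrays with p-values adjusted over all 12420 features, and a gene passed with an adjusted p under 0.05. Fitted on each group's own arrays 0 members passed. Leaving out 1 array at a time gave 7 to 17 members at 10 µM, with 7 to 11 without array 1, 2, 4, 5, 7 or 8 of that group or array 1 of the 5 µM group, and 16 to 24 in untransfected cells. All of these were lower except Rplp1, which passed as higher at 10 µM without array 1 of that group (1.196, adjusted p = 0.0488). Of all 12420 features, 103 to 145 passed either way at 10 µM in these fits, and 213 to 372 in untransfected cells. Rpl5, Rps7, Rps10, Rps14, Rps27, Rps29 and Rpsa passed at 10 µM in all 16 of these fits, and 16 members did in untransfected cells. How many of all features passed in every one of these fits was not counted. In bulk RNA, less of these messages per cell and fewer cells that make them cannot be told apart. The median of each array lay near 0, so a low ratio is relative to the other features of the array.

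Most members lay below 0, those that did not pass included. At 5 µM, 47 of 56 fitted values were below 0, with a median of -0.29. At 10 µM 49 were below 0, with a median of -0.29, and in untransfected cells 54, with a median of -0.60. The median over all features was -0.02, -0.00 and 0.03. By array, the ribosomal median averaged -0.30 ± 0.08 at 5 µM (SD, n = 4), -0.35 ± 0.08 at 10 µM (SD, n = 8) and -0.66 ± 0.05 for untransfected cells (SD, n = 4). The 4 untransfected arrays, from -0.70 to -0.59, lay below all Erbb2 arrays, which ran from -0.44 to -0.22.

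An unadjusted p under 0.05 with a lower value was reached by 19 members at 5 µM, 30 at 10 µM and 37 for untransfected cells, against 3.24%, 5.97% and 6.63% of all features. Members below 0 on every array with a value numbered 32 at 5 µM, 29 at 10 µM and 44 for untransfected cells, against 10.2%, 2.04% and 13.3% of all features. The 5 µM group therefore held many members on one side with none past the threshold, on 4 arrays. Its smallest adjusted p among members was 0.153, for Rplp0.

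**Figure D2:**
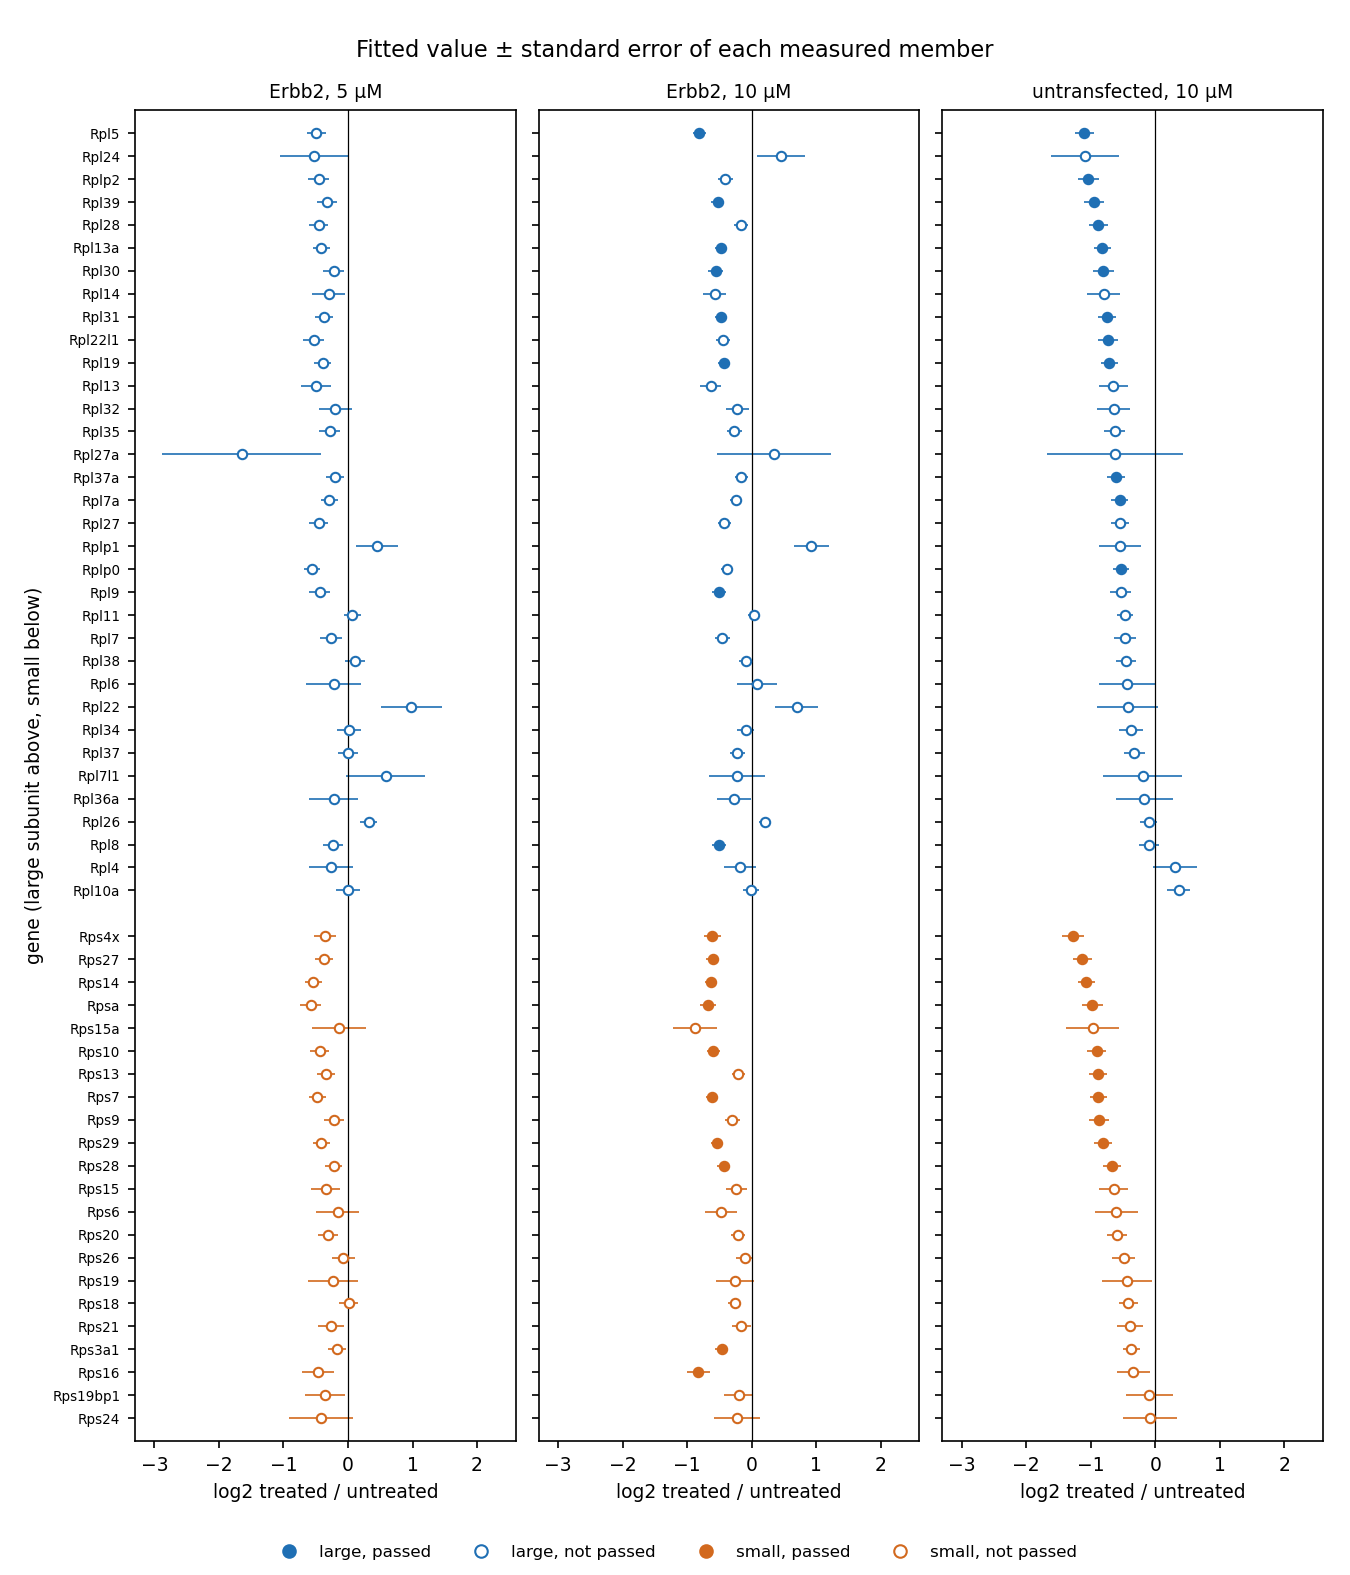
Fitted log2 ratio of treated over untreated cells (x axis, dye reading) with its standard error for each of the 56 measured members (y axis), in Erbb2 cells at 5 and 10 µM and in untransfected cells at 10 µM. Filled points passed the test (0, 18 and 22 genes) and open points did not; small subunit genes at 10 µM and in untransfected cells are all below 0.

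Genes of the small subunit lay lower than those of the large subunit in all 3 groups. The small subunit median was -0.35 at 5 µM, -0.45 at 10 µM and -0.66 for untransfected cells, and the large subunit median was -0.28, -0.25 and -0.55. The small subunit median was the lower one on all 16 arrays, by 0.03 to 0.34. At 10 µM, 10 of 22 small and 8 of 34 large subunit genes passed in Erbb2 cells, and 10 of 22 and 12 of 34 in untransfected cells. All 22 small subunit values were below 0 in both 10 µM groups, against 27 and 32 of 34 large subunit values. The subunits were compared by these counts and medians alone, and their difference was not tested. Genes were assigned by symbol, so the 22 include Rps19bp1, which is no ribosomal protein (-0.36, -0.20 and -0.09 in the 3 groups, none passed). The 34 include the paralogs Rpl7l1 and Rpl22l1.

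Rpsa, the laminin receptor protein that doubles as a component of the 40S subunit, had log2 ratios of -1.03, -0.43, -0.18 and -0.67 at 5 µM. At 10 µM it ran from -1.16 over a median of -0.62 to -0.36, and in untransfected cells it was -0.92, -1.24, -0.88 and -0.86. Every array was below 0 and the groups overlapped. The fitted values were -0.58 ± 0.16 (standard error, adjusted p = 0.306), -0.68 ± 0.12 (adjusted p = 0.00729) and -0.97 ± 0.16 (adjusted p = 0.00381). In linear terms the last of these is 1.96-fold lower.

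Rps14, a protein on the platform of the 40S subunit, had the smallest adjusted p of all members in untransfected cells. It gave -0.41, -0.65, -0.52 and -0.56 at 5 µM, from -0.76 over -0.65 to -0.45 at 10 µM, and -1.15, -0.92, -1.03 and -1.17 in untransfected cells. The untransfected arrays were all below the Erbb2 arrays, which overlapped between doses. Rps14 fell by 0.64 at 10 µM (standard error 0.09, adjusted p = 0.00233) and by 1.07 in untransfected cells (standard error 0.13, adjusted p = 0.000358), 1.55-fold and 2.09-fold lower. Other measured genes of the 40S head and platform, Rps15 (-0.35, -0.24 and -0.64 in the 3 groups), Rps19 (-0.23, -0.26 and -0.44) and Rps20 (-0.31, -0.21 and -0.60), did not pass. Of the 8 genes in that list 5 were measured and 2, Rpsa and Rps14, passed in both lines.

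Rps27, a zinc finger protein of the small subunit, gave -0.44, -0.54, -0.23 and -0.29 at 5 µM. It ran from -0.92 over -0.58 to -0.14 at 10 µM and was -1.29, -1.20, -1.02 and -1.01 in untransfected cells. As with Rps14, every untransfected array was below every Erbb2 array. How many of all features showed such a gap between the lines was not counted. Rps27 was 1.51-fold lower at 10 µM (adjusted p = 0.00622) and 2.19-fold lower in untransfected cells (adjusted p = 0.000402).

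Rps4x, the X-linked form of the Rps4 protein, had the lowest fitted value of all members in untransfected cells, -1.27 ± 0.17 (adjusted p = 0.00103). Its 4 untransfected arrays read -1.29, -1.28, -1.30 and -1.21, a narrow range. In Erbb2 cells it gave -0.34, -0.44, -0.23 and -0.42 at 5 µM, and 7 arrays at 10 µM ran from -1.24 over -0.68 to -0.13 (fitted -0.61 ± 0.13, adjusted p = 0.0347). The lowest 10 µM array of Erbb2 cells thus reached the untransfected range.

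Further small subunit genes that passed in both lines were Rps7 (-0.62 at 10 µM and -0.88 for untransfected cells), Rps10 (-0.59 and -0.91), which is tagged with ubiquitin when ribosomes stall, Rps29 (-0.53 and -0.81) and Rps28 (-0.43 and -0.67). At 5 µM their fitted values were -0.47, -0.44, -0.41 and -0.22, and none passed. Rps13 (-0.20 and -0.89) and Rps9 (-0.30 and -0.87) passed in untransfected cells alone. Rps3a1 (-0.46 and -0.37), which lies where the initiation factor eIF3 docks, passed in Erbb2 cells alone, as did Rps16.

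Rps16, whose tail reaches toward the tRNA in the P site, had 1 array far from the others. It gave -0.61, -0.47, -0.46 and -0.33 at 5 µM, from -2.31 over -0.57 to -0.44 at 10 µM, and -0.31, -0.55, -0.09 and -0.42 in untransfected cells. The fitted value was -0.83 ± 0.18 at 10 µM (adjusted p = 0.0347) and -0.34 ± 0.25 in untransfected cells (adjusted p = 0.783). Array 6 of the 10 µM group held the value of -2.31, and the other 7 lay between -0.92 and -0.44. Without that array Rps16 was at -0.60 and still passed (adjusted p = 0.0112). Near the threshold, it passed in 3 of the 16 fits that left out 1 array.

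Rpl5 and Rpl11 travel with the 5S ribosomal RNA into the large subunit, and when free they bind Mdm2, the ligase that marks p53 for decay. Rpl5 passed in both lines and Rpl11 in neither. Rpl5 gave -0.76, -0.67, -0.32 and -0.20 at 5 µM, from -1.26 over -0.79 to -0.42 at 10 µM, and -1.15, -1.18, -0.95 and -1.12 in untransfected cells. It fell by 0.81 at 10 µM (standard error 0.10, adjusted p = 0.00092) and by 1.10 in untransfected cells (standard error 0.15, adjusted p = 0.000658), 1.75-fold and 2.14-fold lower. Its adjusted p was the smallest of all members in Erbb2 cells at 10 µM. Rpl11 gave 0.16, -0.10, 0.17 and 0.05 at 5 µM, from -0.05 over -0.01 to 0.15 at 10 µM, and -0.55, -0.45, -0.45 and -0.42 in untransfected cells. Rpl11 did not pass in any group (adjusted p = 0.0732 in untransfected cells), and its untransfected arrays were all below its Erbb2 arrays.

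The stalk recruits elongation factors to the large subunit and is built from Rplp0 and pairs of Rplp1 and Rplp2, bound next to Rpl12. Rplp2 gave -0.76, -0.58, -0.17 and -0.30 at 5 µM, from -0.99 over -0.42 to 0.15 at 10 µM, and -0.95, -1.08, -1.03 and -1.10 in untransfected cells. It fell by 1.04 in untransfected cells (standard error 0.16, adjusted p = 0.00208), 2.05-fold lower, and its fitted values of -0.45 and -0.41 in Erbb2 cells did not pass. Rplp0 was -0.56 ± 0.13, -0.39 ± 0.09 and -0.53 ± 0.13, with a pass in untransfected cells (adjusted p = 0.037) and an adjusted p of 0.0539 at 10 µM. Its pass in untransfected cells held in 6 of the 16 fits that left out 1 array.

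Rplp1 was the exception among the stalk genes. It gave -0.11, 0.59, 0.57 and 0.71 at 5 µM, and 6 arrays at 10 µM ran from -0.56 over 0.88 to 2.15. In untransfected cells it gave -1.005, -0.99, -0.09 and -0.08, where the first pair of arrays had the treated RNA in Cy5 and the second pair in Cy3. None of its fitted values passed (0.44 ± 0.33, 0.93 ± 0.27 and -0.54 ± 0.33), but it passed as higher at 10 µM without array 1 of that group. Rpl12 was on a probe annotated with 2 symbols and is not part of these counts.

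**Figure D3:**
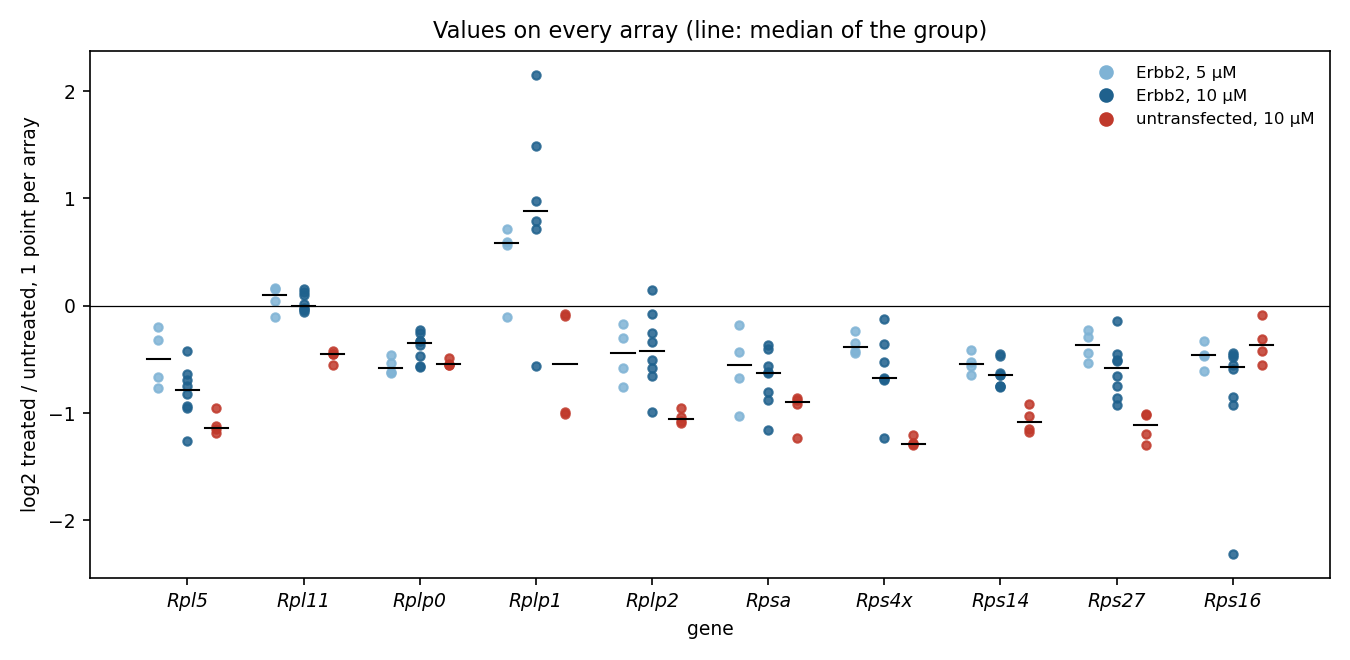
Log2 ratio of treated over untreated cells (y axis, dye reading) on every array for 10 members (x axis), in Erbb2 cells at 5 and 10 µM and in untransfected cells at 10 µM, with the group median as a line. In untransfected cells Rps4x, Rps27, Rps14 and Rpl11 lie below all or nearly all Erbb2 arrays, Rplp1 spreads over more than 2 log2 units at 10 µM, and 1 array sets Rps16 apart.

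At the rim of the exit tunnel, where the new chain leaves the large subunit, 4 of 6 listed genes were measured. Rpl19 (-0.42 at 10 µM and -0.71 for untransfected cells) and Rpl31 (-0.47 and -0.75) passed in both lines. Rpl35 (-0.27 and -0.63) and Rpl26 (0.21 and -0.10) passed in neither. The Rpl35 value is a mean over probes, and fitted by probe, one of them passed in untransfected cells (-0.79, adjusted p = 0.0104). Rpl26, whose protein also binds the p53 message, was above 0 on all 4 arrays at 5 µM (0.16 to 0.44), the one member above 0 throughout a group. Of all 12420 features, 1031 were above 0 on every 5 µM array with a value.

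Other large subunit genes that passed in both lines were Rpl13a (-0.47 at 10 µM and -0.82 for untransfected cells), often used as a reference gene for normalisation, Rpl39 (-0.53 and -0.94), which lines the exit tunnel, and Rpl30 (-0.56 and -0.80). Rpl28 (-0.16 and -0.88), Rpl37a (-0.16 and -0.60), Rpl7a (-0.24 and -0.55) and the paralog Rpl22l1 (-0.45 and -0.73) passed in untransfected cells alone. There Rpl28 kept its call in all 16 fits that left out 1 array, Rpl22l1 in 13, Rpl37a in 12 and Rpl7a in 8. Rpl9 (-0.51 and -0.53) and Rpl8 (-0.51 and -0.09), which lies near the site of peptide bond formation, passed in Erbb2 cells alone. Rpl8 passed in 4 of the 16 fits that left out 1 array, and without array 5 of the 10 µM group it was at -0.43 (adjusted p = 0.0839). For Rpl9 the fitted values of the lines were nearly alike, with 8 Erbb2 and 4 untransfected arrays behind them. In all, 14 genes passed in both lines, which is 77.8% of the Erbb2 list and 63.6% of the untransfected list. Of these, Rpl19 kept its call in Erbb2 cells in 4 of the 16 fits that left out 1 array, and Rps28 and Rps4x in 3 each, as Rpl9 did in 2. With the treated RNA of untransfected cells in the other dye, 0 members were lower in both lines by the test. The share of all features that passed in both lines was not counted. Both lists came from one fit with one spread per feature, so they are not independent.

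A list of 12 genes was chosen from those mutated in Diamond-Blackfan anaemia, a failure of red cell formation caused by ribosomal protein loss in humans. Of these 12 genes 9 were measured. Rpl5, Rps7, Rps10 and Rps29 passed as lower in both lines, and Rpl11, Rpl26, Rps19, Rps24 and Rps26 in neither. Rps26 is a mean over probes, and fitted by probe, one of them passed in untransfected cells (-0.77, adjusted p = 0.00522). A second Rps24 probe, below 0 on all Erbb2 arrays (-1.15 to -0.03), had too few untransfected values to be kept. The median of the 9 was -0.41 at 5 µM, -0.26 at 10 µM and -0.49 for untransfected cells, beside -0.29, -0.29 and -0.60 for all 56 members.

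Several of the lowest and highest members did not pass the test and had wide errors. At 5 µM, where no member passed, the lowest was Rpl27a (-1.64 ± 1.23, from 3 arrays of which one read -6.14), and the highest were Rpl22 (0.98 ± 0.48), Rpl7l1 (0.58 ± 0.61) and Rplp1. At 10 µM Rps15a was lowest (-0.88 ± 0.35, from 6 arrays), and Rplp1, Rpl22 (0.70 ± 0.34), Rpl24 (0.46 ± 0.37), which bridges the subunits, and Rpl27a (0.35 ± 0.88) were highest. In untransfected cells the lowest, Rps4x, Rps27 and Rpl5, passed, while Rpl24 stood at -1.09 ± 0.53 and Rps15a at -0.97 ± 0.41, and the only 2 members above 0 were Rpl10a (0.37 ± 0.18) and Rpl4 (0.31 ± 0.35). Rps24 (-0.08 ± 0.42) and Rps19bp1 (-0.09 ± 0.37) came next. The genes with large positive values in Erbb2 cells were thus not those above 0 in untransfected cells.

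For 16 genes the value is a mean over 2 or more probes, and 6 of these had probes of opposite sign. Rpl4, which lines the exit tunnel, had a probe at -0.54, -0.47 and -0.85 in the 3 groups that passed in both lines at 10 µM, while the others read 0.28, 0.57 and 1.43, and -0.21, -0.29 and 0.99. Rps6, the S6 kinase substrate, had a probe at -0.54, -0.75 and -0.81 that passed in both lines and another at 0.22, -0.09 and -0.40. Rps21 had a probe at -1.05 in untransfected cells that passed and another at 1.19. In these 3 genes the probe that passed had values on 15 or 16 arrays, and the positive probe on 12 to 14.

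Rpl6 (-0.28 against 0.68 at 10 µM), Rpl34 (-0.11 against 0.13 at 5 µM) and Rpl8 (-0.15 and -0.27 against 0.19 in untransfected cells) also held both signs. Counted by probe, 20 of 77 passed as lower at 10 µM and 32 of 77 in untransfected cells, and 0 at 5 µM, against 0.83%, 2.33% and 0.00675% of all 14813 probes. A probe each of Rpl14, Rpl34, Rpl35 and Rps26 passed in untransfected cells, where the gene means did not. A probe of Rplp0 passed in Erbb2 cells at 10 µM (-0.42, adjusted p = 0.0482), where its gene mean did not. Ribosomal protein genes have many processed pseudogenes, and the cDNA sequences of the probes were not used here, so how far a probe also read other copies was not tested.

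Between doses, no member passed the test of the difference. The difference 10 minus 5 µM in Erbb2 cells had a median of -0.08 over members and 37 of 56 values below 0. None passed, against 0% of all features, and the smallest adjusted p was 0.998. An unadjusted p under 0.05 was reached by 0 members, against 538 of all 12420 features. For Rpl5 the difference was -0.32 ± 0.18.

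Between lines, the values of Erbb2 cells lay above those of untransfected cells for most members under the dye labels as given, and no single gene passed. The difference Erbb2 minus untransfected at 10 µM was above 0 for 47 of 56 members, with a median of 0.29, beside -0.03 over all features. None passed, against 0.813% of all features either way, and 13 members reached an unadjusted p under 0.05 as higher, against 5.32%. The smallest adjusted p was 0.103, for both Rpl28 (0.72 ± 0.18) and Rps13 (0.68 ± 0.17). Rplp1 was at 1.47 ± 0.42 (adjusted p = 0.196), and Rps27 (0.53 ± 0.17) and Rps4x (0.66 ± 0.21, 95% interval 0.20 to 1.12) had an adjusted p of 0.266 each. Rpl8 ran the other way, at -0.42 ± 0.19 (adjusted p = 0.506), and so did Rps16 at -0.49 ± 0.31. The dye labels of the untransfected arrays carry the doubt given above. With their treated RNA in the other dye the 22 genes would be higher. The difference between lines would then pass for 30 members, against 351 of all features, and its median over members would be -0.91. With the labels as given and values required on every array, 2 of 45 members passed the difference between lines. Both were higher, against 142 of all 7148 features that passed as higher.

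**Figure D4:**
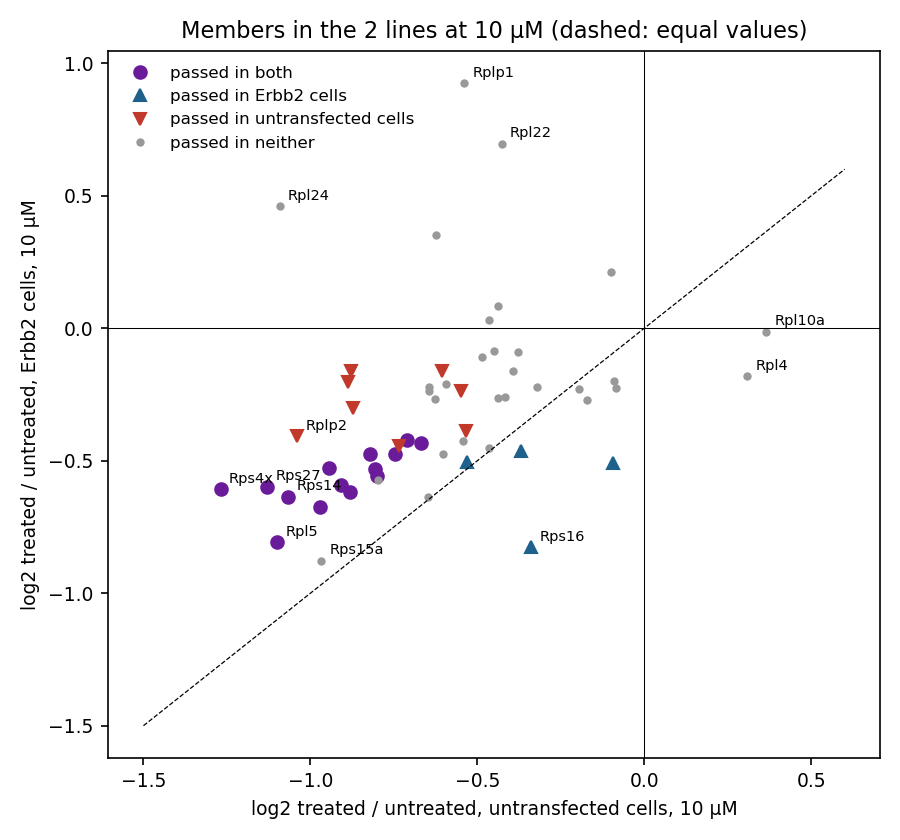
Fitted log2 ratio at 10 µM in Erbb2 cells (y axis) against untransfected cells (x axis) for the 56 measured members, dye reading, with equal values on the dashed line. Circles passed as lower in both lines (14 genes), upward triangles in Erbb2 cells alone (4), downward triangles in untransfected cells alone (8) and grey dots in neither (30); 47 points lie above the line.

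Messages outside the ribosome that carry a 5′ TOP tract moved in the same direction. Of 13 measured, 4 passed as lower in Erbb2 cells at 10 µM, namely the elongation factors Eef2 (-0.78) and Eef1b2 (-0.70), the nucleolar chaperone Npm1 (-0.68) and Tpt1 (-0.55). In untransfected cells 6 passed, Eef1b2 (-1.23), Eef1a1 (-0.87), Tpt1 (-0.87), Eef1g (-0.77), the poly(A) binding protein Pabpc1 (-0.70) and Npm1 (-0.63). None passed at 5 µM, and none was higher in any group. The list's medians of -0.31, -0.28 and -0.70 were near the ribosomal ones. Eef2 in untransfected cells (-0.88 ± 0.24) and Eef1a1 in Erbb2 cells at 10 µM (-0.24 ± 0.13) did not pass.

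Genes that make ribosomes without being part of them lay nearer to 0. Of 24 measured out of 35, Npm1 alone passed, as lower in both lines at 10 µM, and the medians were -0.11, -0.14 and -0.34. Below 0 stood 16, 16 and 22 of the 24, against 52.3%, 50.6% and 46.9% of all features. The mitochondrial ribosome, whose proteins come from another set of nuclear genes, served as the nearest comparison. In the 3 groups 0, 18 and 22 of 56 members passed, against 0 of its 53 measured genes in each, and its medians were 0.03, 0.00 and 0.05. At an unadjusted p under 0.05 stood 1, 3 and 0 of them, against 786, 1343 and 1428 of all 12420 features. Fau, which encodes ribosomal protein S30 fused to a ubiquitin-like domain, was at -0.30 ± 0.27, -0.67 ± 0.19 and -0.01 ± 0.27 and did not pass.

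**Figure D5:**
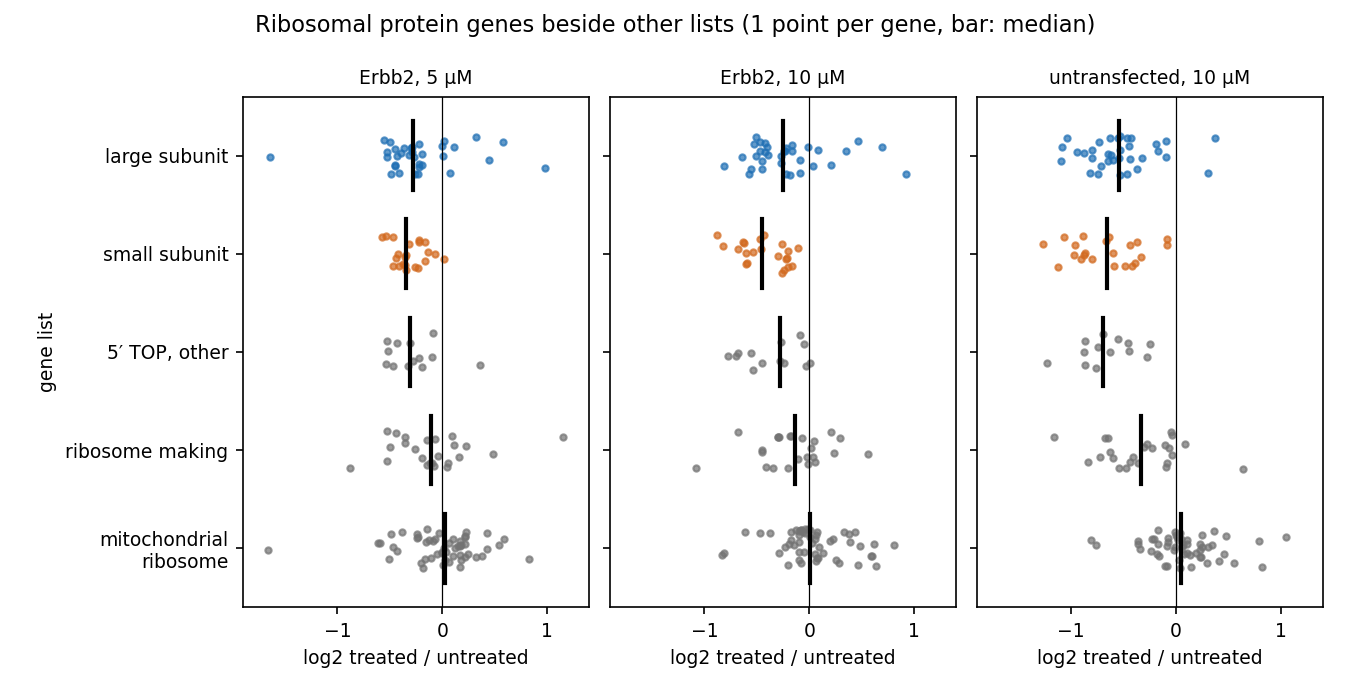
Fitted log2 ratio of treated over untreated cells (x axis, dye reading), 1 point per gene and a bar at the median, for large and small subunit genes, other 5′ TOP genes, ribosome-making genes and mitochondrial ribosomal protein genes (y axis), in the 3 groups. Both subunits and the 5′ TOP genes sit left of 0, and the mitochondrial genes are centred near it.

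The arrays gave 16153 to 18507 ratios each, and the interquartile range over all features ran from 0.59 to 1.21. It was widest on arrays 3, 5 and 6 of the 10 µM group. Without these 3 arrays 4 members passed at 10 µM, against 57 of all features, and the ribosomal median was -0.40. Ratios show no level, so the fibroblast identity of the cells could not be checked. Of 8 fibroblast markers, Sparc rose at 10 µM in Erbb2 cells (0.68), and Fn1 (-1.63), Col1a2 (-0.79) and Vim (-0.55) fell in untransfected cells. Krt8, 1 of 5 epithelial markers, rose in untransfected cells (1.13). Of the other lists, Tyrobp (-0.68), 1 of 3 blood and immune markers, and Mylpf (-0.78), 1 of 2 skeletal muscle markers, fell in untransfected cells, and the 1 adipocyte marker did not pass. Their part in the ribosomal result was not tested. The dye term of the fit passed for 0% of features.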

How the data were processed

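RNA of 16 sample pairs was measured on two-colour cDNA arrays. Deposited were log ratios of both channels, which are read as log2. Their base and direction are not stated, and log2 was inferred from the highest values. The deposited medians per array ran from -0.03 to 0.05. How images, background and normalization were handled is not given in the sources used here. No intensities were used, so signal over background is unknown, and precision is limited by how many arrays there were. Per the labels' protocols the samples were organs and a pool of animals, which does not match the cell lines of the titles, and that text was not used.

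Samples were grouped by titles and source names, and the dye of the treated RNA came from the label of channel 1. Placeholders (1755 of 325680 cells, with 1 repeated value per array from 15.4 to 16.6, next highest ratio 7.94) were set missing, beside 38737 empty cells. A probe needed values on 3 arrays of each group of 4 and 6 of the group of 8, and both dye arrangements. This kept 14813 of 20355 probes, and averaging by gene gave 12420 features. Of the 94 member probes 93 matched the RefSeq table of GRCm38.p6 by Entrez ID, and 0 symbols changed.

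The fit (limma 3.58.1 in R 4.3.3, with version 1.17.8 of data.table, lmFit and eBayes, two-sided) had a coefficient per group and a shared dye term. P-values were adjusted by Benjamini-Hochberg over all features. Contrasts set 10 against 5 µM within Erbb2 cells, and the lines against each other at 10 µM. The procedure was tested on simulated data. Alternatives changed the direction, dye term, filters, scaling, weights and arrays used, and their effect is given in the closing section. The members and gene lists were chosen with earlier results of these data known. Named were all members that passed, the 4 highest and lowest of each group, those with probes of opposite sign, the role lists, and passing genes of the other lists. Replicate numbers were not taken to pair the arrays. Deviations of arrays with the same number correlated between -0.03 and 0.04 over 12 pairs, and with other numbers between -0.05 and 0.04 over 68. Such values cannot exclude a shared culture or batch. Promoters are RefSeq's, of the same build.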

Additional observations from a re-analysis of the deposited data

Results flagged for a closer look

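In 13 of 167 sets of 4 to 8 array values (164 of single members and 3 of the ribosomal median), 1 array stood further from the others than Dixon's 95% critical value, and chance alone gives about 1 in 20. None was at 5 µM, 7 were in Erbb2 cells at 10 µM and 6 in untransfected cells. On array 6 of the 10 µM group Rps16 read -2.31 (others -0.92 to -0.44), Rpl14 read -2.04 (others -0.72 to 0.02) and Rpl22 read 3.31 (others -0.64 to 1.02). On array 5 Rpl8 read -1.03 and Rps15 read -0.56, on array 3 Rpl13 read -2.05 and on array 4 Rps21 read -0.82. Arrays 3, 5 and 6 were those with the widest spread over all features. Of these genes Rps16 and Rpl8 passed as lower at 10 µM. Without the array in question Rps16 still passed and Rpl8 did not.

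In untransfected cells the deviating values were Rpl24 at -1.38 (others -1.005 to -0.99), Rpl28 at -0.83 (others -0.90 to -0.89) and Rpl9 at -0.66 on array 1. On array 2 Rpsa read -1.24 (others -0.92 to -0.86). On array 4 Rpl6 read 0.20 (others -0.68 to -0.61) and Rpl7l1 read -0.84 (others -0.00 to 0.06). For Rpl28 and Rpl9 the gap was small on the log2 scale and the other 3 arrays lay close together. Of these, Rpl28 and Rpsa passed as lower in untransfected cells, also without the array in question. Rpl26 alone had all arrays of one group above 0 and all of another below it, with 0.16 to 0.44 in Erbb2 cells at 5 µM and -0.16 to -0.03 in untransfected cells at 10 µM. The means differed by 0.42, these groups differ in both line and dose, and the difference was not tested. Rpl26 was the 1 found in 168 pairs of groups examined. Of all 12420 features, 1031 were above 0 on every 5 µM array and 1648 below 0 on every untransfected array. How many features did both was not counted.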

How the results depend on the processing

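Most limits come from the unstated direction and the few arrays. With no array turned, the reading as treated over untreated, 0 ribosomal genes passed in any group, against 0, 2 and 4 of all 12420 features. The ribosomal median was then -0.060 at 5 µM, 0.012 at 10 µM, -0.045 for untransfected cells and 0.041 for the difference between doses. Of the genes named as lower, 11 at 10 µM changed sign, namely Rpl13a (0.047), Rpl19 (0.039), Rpl39 (0.20), Rpl8 (0.053), Rpl9 (0.12), Rps14 (0.043), Rps16 (0.14), Rps28 (0.056), Rps29 (0.14), Rps3a1 (0.067) and Rps4x (0.084). In untransfected cells 5 did, Rpl28 (0.014), Rplp2 (0.026), Rps14 (0.034), Rps29 (0.11) and Rps9 (0.0064). With the treated RNA of untransfected cells in the other dye, their median was 0.60 and 22 genes passed as higher, against 265 of all features. The difference between lines passed for 30 genes, against 351 of all features, and its ribosomal median was -0.91. The next values are those of the 22 genes in untransfected cells. The values were Rpl13a 0.82, Rpl19 0.71, Rpl22l1 0.73, Rpl28 0.88, Rpl30 0.80, Rpl31 0.75, Rpl37a 0.60, Rpl39 0.94, Rpl5 1.10, Rpl7a 0.55 and Rplp0 0.53. The others were Rplp2 1.04, Rps10 0.91, Rps13 0.89, Rps14 1.07, Rps27 1.13, Rps28 0.67, Rps29 0.81, Rps4x 1.27, Rps7 0.88, Rps9 0.87 and Rpsa 0.97. The signs under the exchanged dye follow from its construction, which negates the untransfected values. With no array turned the fit gives the mean of both dye arrangements, so its signs do not follow from the main fit. Each group fitted on its own arrays, and either dye arrangement alone, gave 0 calls at 10 µM and 0 in untransfected cells, on fewer arrays, with an untransfected median of -0.68 in the Cy5 arrangement. Of all features, 22 at 10 µM and 0 in untransfected cells passed in the own-array fits. The Cy5 arrangement alone gave 3 and 15 of all features, and Cy3 alone 2 and 8. Requiring values on every array gave 3 calls at 5 µM and 2 between lines, against 73 and 189 of all 7148 features, and a 10 µM median of -0.42. Requiring values on 2 arrays of each group gave 8 calls at 10 µM, against 110 of all 14615 features, and an untransfected median of -0.55. Array weights gave 3 calls at 5 µM, against 96 of all features, and a 10 µM median of -0.38. Keeping the placeholder values gave a 10 µM median of -0.40. A test against a 1.2-fold change left 1 call at 10 µM and 13 in untransfected cells, against 33 and 154 of all features. Without arrays 3, 5 and 6 of the 10 µM group, 4 genes passed there, against 57 of all features, with a ribosomal median of -0.40. Without the 4 untransfected arrays, an alternative chosen after seeing the data, 8 passed at 10 µM, against 99 of all features. The cause of these moves was not tested. Leaving out 1 array at a time gave 7 to 17 calls (all lower except Rplp1, higher without array 1) and a median of -0.36 to -0.28 at 10 µM, 16 to 24 calls and -0.62 to -0.55 in untransfected cells, and 0 calls and -0.34 to -0.28 at 5 µM. With the replicate number as a block (replicate block) 0, 18 and 22 genes passed in the 3 groups, as without it. The contrasts were fitted with the replicate number as terms of the model, and 0 members passed either. Between lines 0 of all features passed in that fit, against 101 in the main fit. No dye term, each probe alone, centring and scaling moved no count by over 1.5 times.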
